A study of Mus musculus with 24 samples.

Results

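Transcripts of 39 interferon-stimulated and class I antigen presentation genes were followed in differentiating C2C12 cells given linoleic acid or ANGPTL4. The genes were chosen by name as interferon-response genes. The rule uses no measured value, but it was drawn up with earlier results of these data known. Of the 39 genes, 38 were among the 14693 genes of the table, and 36 were among the 12994 genes that passed a filter on low counts. Psmb9 was not analysed here, and Psmb8 and Usp18 were too low to be tested. Psmb8 read 0.113 to 0.698 CPM (a counts-per-million scale) and Usp18 0 to 0.623 CPM in the 24 libraries.

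C2C12 is a mouse myoblast line of wild-type genotype, per its labels, which exits the cell cycle and fuses into myotubes once serum is lowered. All 6 groups were differentiated in horse serum in place of fetal bovine serum. The additions were a vehicle alone, LA (linoleic acid, a polyunsaturated fatty acid of vegetable oils) at 100 µM on bovine serum albumin, and recombinant mouse ANGPTL4, a secreted inhibitor of lipoprotein lipase, at 10 ng/mL. Cells were harvested at day 2 or day 6, with 4 libraries in each group. The series title concerns block of differentiation by LA-induced ANGPTL4, and whether the vehicle held albumin was not stated in the labels. All libraries came from 1 cell line in culture, with no immune cells added per the labels. Nothing in the labels says that the 4 libraries of a group came from separate cultures, so the p-values measure the spread between these libraries, which may be technical.

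Type I interferons act through a receptor of Ifnar1 and Ifnar2 chains and the kinases Jak1 and Tyk2, which activate Stat2. Stat2 and Irf9 belong to a complex that binds interferon-stimulated response elements in gene promoters, while interferon gamma acts at gamma-activated sites and through Irf1. Sensors of viral RNA such as Ifih1 (MDA5) start the response, and its targets include proteins that block viral RNA and protein synthesis, guanylate-binding GTPases, and the machinery that cuts peptides and loads them on class I molecules. Muscle fibres carry little class I at rest and raise it in inflammatory myopathy.

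Promoters of 33 of the 39 genes were found in a RefSeq table (build GRCm38.p6) that spans 250 bases before to 50 bases after each start. Both motifs were searched on both strands. The core of the interferon-stimulated response element was taken as GAAA followed after 2 bases by GAAA, and the gamma-activated site as TTCNNNGAA, which reads the same on both strands. The first was held by 13 of 33 members (39.4%) and by 1079 of 27025 genes of the table (3.99%). The gamma-activated site was held by 9 of 33 members (27.3%) and by 2582 of 27025 genes (9.55%). A match describes the letters in the window and is not a measured binding site. Below are the 250 bases before the start of 4 genes, read on the plus strand, which is the gene's own strand. Each is the gene of its role (transcription factors, antiviral effectors, GTPases and class I genes) with the largest absolute treatment difference, called or not, among those whose window held a match. Capitals mark the gamma-activated site in Irf1 and the response element cores, on either strand, in the other genes. In Gbp3 the capitals cover 2 cores that overlap.
Irf1, chr11:53769764-53770013: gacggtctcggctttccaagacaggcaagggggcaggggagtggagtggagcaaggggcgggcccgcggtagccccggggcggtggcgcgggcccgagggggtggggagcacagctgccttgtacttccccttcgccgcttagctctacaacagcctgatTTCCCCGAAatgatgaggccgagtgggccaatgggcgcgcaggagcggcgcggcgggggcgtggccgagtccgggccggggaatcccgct
Ifit3b, chr19:34607707-34607956: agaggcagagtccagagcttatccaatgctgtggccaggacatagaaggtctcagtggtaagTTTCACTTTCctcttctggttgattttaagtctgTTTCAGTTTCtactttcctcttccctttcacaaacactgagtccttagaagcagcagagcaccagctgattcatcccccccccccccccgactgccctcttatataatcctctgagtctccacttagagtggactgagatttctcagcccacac
Gbp3, chr3:142559794-142560043: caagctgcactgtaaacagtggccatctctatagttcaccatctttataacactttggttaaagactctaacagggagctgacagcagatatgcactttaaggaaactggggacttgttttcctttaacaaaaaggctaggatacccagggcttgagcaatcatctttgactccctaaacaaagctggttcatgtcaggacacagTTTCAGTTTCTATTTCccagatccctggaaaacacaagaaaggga
B2m, chr2:122147437-122147686: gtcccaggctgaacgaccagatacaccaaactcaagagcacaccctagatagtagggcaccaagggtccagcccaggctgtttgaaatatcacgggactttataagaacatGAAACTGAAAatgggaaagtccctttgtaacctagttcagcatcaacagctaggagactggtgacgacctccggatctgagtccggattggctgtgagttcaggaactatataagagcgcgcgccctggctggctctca
In B2m the core began 139 bases before the start, in Gbp3 45 and 39 bases before it, in Ifit3b 188 and 154 bases before it, and in Irf1 the gamma-activated site began 90 bases before it. Ifit3 held the same letters as Ifit3b in its 2 cores, 156 and 122 bases before its start. Other members with a response element core were Bst2, Eif2ak2, Gbp2, Gbp7, Ifih1, Ifit1, Igtp, Isg15 and Stat2.

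Library totals ran from 6.1 to 25.05 M counts (M as in CPM). Day 2 LA replicate 3 and day 6 ANGPTL4 replicate 1 stood apart from their groups on the second principal component of all genes. On that component day 2 LA replicate 3 (-19.3) lay among day 2 ANGPTL4 replicates 1 to 3 (-15.2 to -19.7). Day 2 ANGPTL4 replicate 4 (-4.61) lay nearer to day 2 LA replicates 1, 2 and 4 (1.32 to 4.07) than to its own group. It was kept in the fits without the libraries that stood apart. On the first component (47.5% of the variance), day 2 LA replicate 3 was at -21.6. That was nearer to day 2 ANGPTL4 replicates 1 to 3 (-18.1 to -19.9) than to its own group (-26.7 to -29.9). Day 2 ANGPTL4 replicate 4 (-28.4) lay among those LA libraries there. The labels were taken as given, and the day 2 LA and ANGPTL4 results rest on them. All 12 skeletal muscle markers were in the table, and their summed level was 11900 to 17400 CPM. Of 14 macrophage and leukocyte markers, 7 were in the table, with a summed level of 5.63 to 9.09 CPM over all groups, and the defining genes Ptprc and Adgre1 were not among them. Of the 6 lymphocyte markers, 0 were in the table. The 5 endothelial markers had 3 in the table (0.598 to 1.96 CPM summed), the 5 dendritic cell markers 3 (2.33 to 5.81 CPM), and the 6 adipocyte markers 0. In bulk RNA, fewer cells with a transcript and less RNA per cell cannot be told apart.

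The class I genes B2m and H2-K1 were the highest members. B2m, the light chain of class I molecules, averaged 200 CPM over the 24 libraries (155 to 251), and H2-K1, a classical class I heavy chain, averaged 56.7 CPM (41.5 to 74.9). The libraries read transcript ends, so CPM was not divided by transcript length. Trim25, a ubiquitin ligase that acts on the RNA sensor RIG-I, followed at 39.7 CPM, Irf1 at 39.1, the RNA editing enzyme Adar at 38.3 and the peptide-loading protein Tapbp (tapasin) at 36 CPM. In all, 19 members averaged at least 5 CPM. Some canonical interferon markers were low. Isg15, a ubiquitin-like protein, averaged 1.43 CPM, Ifit1 0.785, Irf7 1.36 and Oasl2 2.27 CPM. Others were higher, with Stat2 at 27.3 CPM, Eif2ak2 at 23.9, Ifit2 at 21.8, Ifi35 at 13.4, Irf9 at 8.26 and Bst2 at 5.83 CPM.

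**Figure D1:**
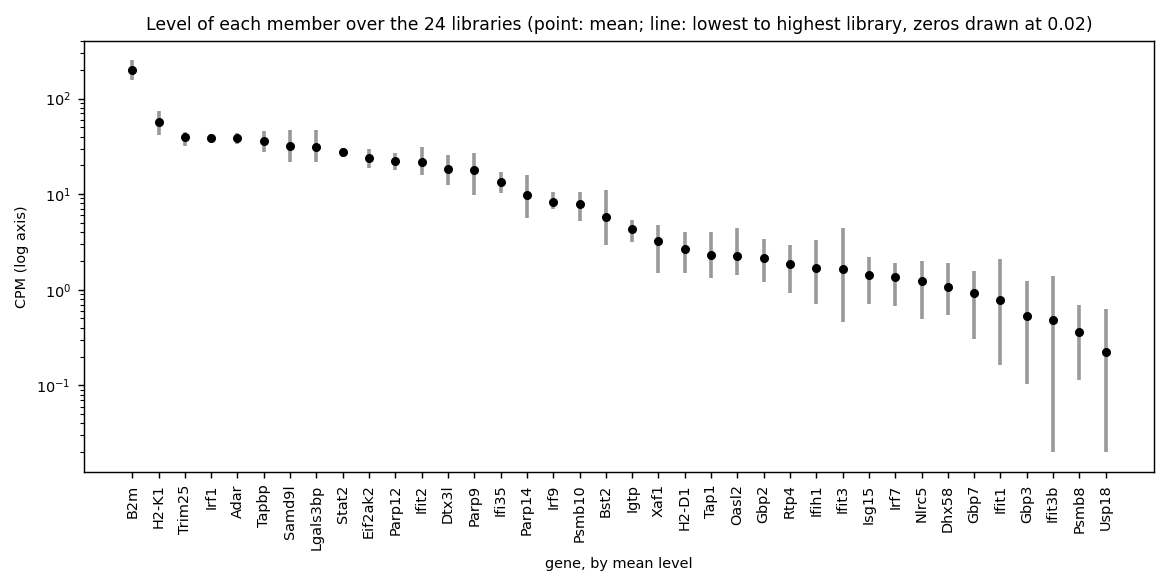
Level of the 38 members in the table, in CPM on a log axis, ordered by mean. Points are means over 24 libraries and lines run from the lowest to the highest library. B2m stands highest at 200 CPM, and Usp18 lowest at 0.224 CPM.

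With vehicle alone, 15 members rose between day 2 and day 6 and 0 fell. Among all genes tested 25.2% were called higher and 20.5% lower. The members' median log2 fold change was 0.25, beside 0.02 over all genes. A gene was called at an adjusted p under 0.05 in edgeR's quasi-likelihood test, with the Benjamini-Hochberg adjustment made across the 12994 genes tested. Of the 2 RNA sensors and 5 transcription factors, 0 were called by edgeR, and 0 had an unadjusted p under 0.05. All 4 genes of the ADP-ribosylation group rose. Parp9 and its partner Dtx3l, a ubiquitin ligase, rose together. Parp9 read 13.7, 9.78, 13.7 and 14.5 CPM at day 2 and 19.6, 23.3, 20.3 and 20.1 CPM at day 6 (1.62-fold, adjusted p = 3.82e-06). Dtx3l went from 14 ± 1.87 to 21.5 ± 1.71 CPM (SD, n = 4 each; adjusted p = 1.03e-06 in the fit across all genes). For both genes the day 6 libraries all lay above the day 2 libraries.

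Antiviral effectors gave 8 of the 15 calls. Ifit1, which binds viral RNA with an immature cap, read 0.354, 0.272, 0.403 and 0.165 CPM at day 2 and 0.982, 1.4, 0.728 and 1.97 CPM at day 6. Its level was low at both days, but the groups did not overlap (log2 fold change 2.04, SE 0.47, adjusted p = 0.000687). Ifit2 rose 1.30-fold from 19.3 ± 0.219 to 25 ± 1.1 CPM, and Ifit3 2.05-fold from 0.83 ± 0.283 to 1.7 ± 0.452 CPM. Bst2 (tetherin), which holds budding viruses at the cell surface, rose 1.69-fold. Samd9l, Lgals3bp, Ifi35 and Xaf1 rose 1.20 to 1.38-fold. Of the class I genes, H2-K1 rose 1.41-fold, Tapbp 1.29-fold and H2-D1 1.53-fold, while B2m had a mean of 178 CPM at day 2 and 180 CPM at day 6 and was not called. The 4 GTPases Gbp2, Gbp3, Gbp7 and Igtp were not called, and 0 of them had an unadjusted p under 0.05.

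Calls of Bst2, Dtx3l, H2-K1, Ifit1, Ifit2, Ifit3, Parp9, Parp14 and Tapbp were kept when each of the 8 libraries was left out in turn. Without day 2 vehicle replicate 3 the count fell to 9 members. Left out 1 library at a time, Ifi35 lost its call in 6 of 8 fits (adjusted p 0.0645 to 0.175), Xaf1 in 5 (0.0504 to 0.212), Samd9l in 5 (0.0589 to 0.11) and H2-D1 in 4 (0.0672 to 0.0975). Without day 2 vehicle replicate 3, Lgals3bp had an adjusted p of 0.0786 and Parp12 one of 0.0603. Xaf1 read 1.51 CPM in that library and 2.8 to 3.01 CPM in the other 3 of its group. In this comparison 7 of 12 skeletal muscle markers rose and 3 fell, their sum being 13400 to 14700 CPM at day 2 and 16400 to 17400 CPM at day 6. Of 6 fibroblast markers tested 5 rose and 1 fell, with sums of 6240 to 7140 CPM and 8000 to 9040 CPM. Their part in the members' rise was not tested.

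**Figure D2:**
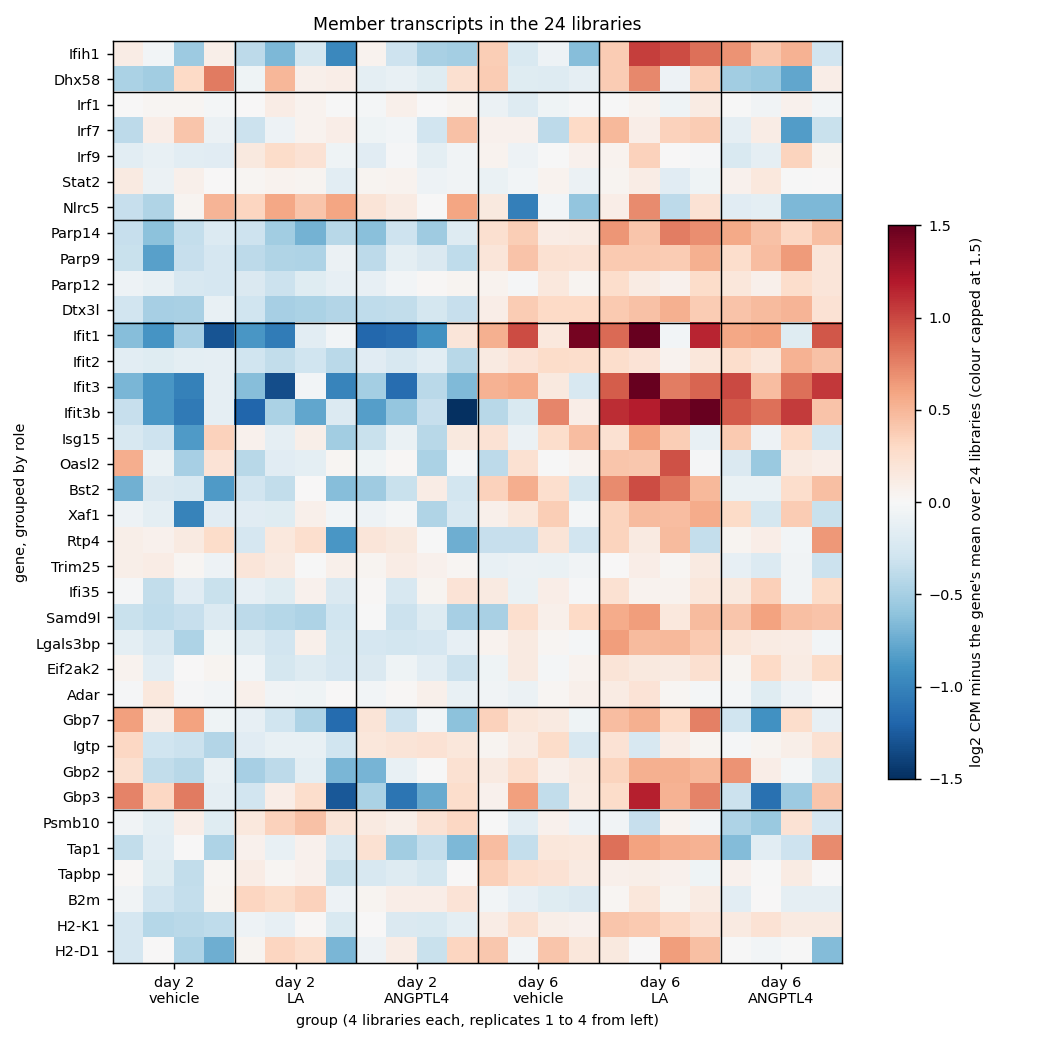
Log2 CPM of the 36 members tested, minus each gene's mean, in the 24 libraries, with genes grouped by role and colour capped at 1.5. Day 6 LA libraries are mostly redder than day 6 vehicle in Ifih1, Ifit3, Ifit3b, Bst2 and Lgals3bp. In Ifih1 and Ifit3 they overlap the day 6 ANGPTL4 libraries. Day 2 libraries are bluer in the PARP and Ifit genes.

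At day 6, LA raised 9 of the 36 members tested and lowered 0. Over all genes 7.83% were called higher and 9.38% lower. Among all called genes 45.5% were higher, and 59.1% with library totals alone as the scaling. The members' median log2 fold change was 0.22, beside -0.0096 over all genes, and 32 of the 36 lay above 0. In each library the mean deviation of the 36 members was 0.322 to 0.445 with LA and 0.0439 to 0.0956 with vehicle, on the log2 scale, so the groups did not overlap. This mean is a description and was not tested. LA and ANGPTL4 were each set against the same 4 vehicle libraries of their day, so those comparisons share controls.

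**Figure D3:**
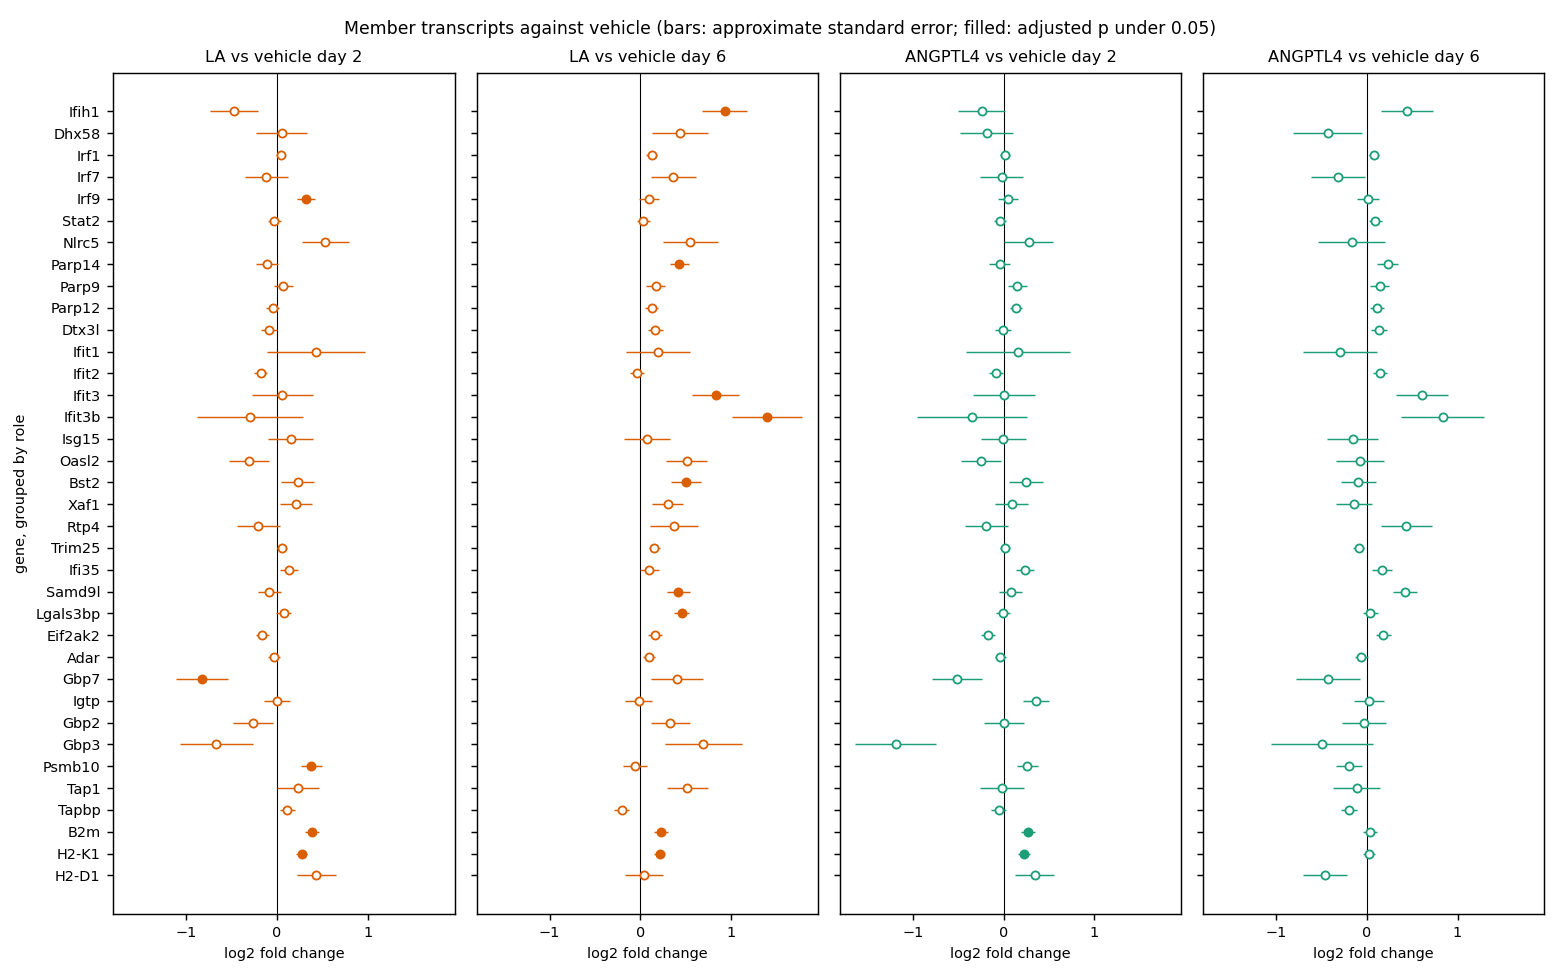
Log2 fold change of the 36 members tested against vehicle of the same day, with approximate standard errors, for LA and ANGPTL4 at each day. Filled points are called. LA at day 6 has 9 filled points, all to the right of 0, and ANGPTL4 at day 6 has 0.

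Among the sensors, Ifih1, which detects long double-stranded RNA, read 2.06, 3.34, 3.19 and 2.86 CPM with LA at day 6 and 2.05, 1.3, 1.46 and 0.934 CPM with vehicle. Each LA library lay above each vehicle library, the closest pair at 2.06 and 2.05 CPM. The rise was 1.91-fold (log2 fold change 0.93, SE 0.25, adjusted p = 0.00705). Dhx58, a regulator of RNA sensing, was at 1.39 ± 0.339 and 1.03 ± 0.243 CPM (SD, n = 4 each) and was not called. Of the 5 transcription factors 0 were called by edgeR, and 1, Irf1, had an unadjusted p under 0.05. Irf1, the highest of them, read 39, 40.5, 37.4 and 42.7 CPM with LA and 36.7, 34, 37.2 and 38.6 CPM with vehicle, and its adjusted p was 0.138. Irf7, Irf9, Stat2 and Nlrc5 (the activator of class I genes) had log2 fold changes of 0.03 to 0.55, all short of a call.

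Parp14, an ADP-ribosyltransferase, read 14.9, 12.5, 15.9 and 15.3 CPM with LA and 11.1, 12.1, 10.1 and 10.2 CPM with vehicle. The groups did not overlap, and the rise was 1.35-fold (log2 fold change 0.43, SE 0.11, adjusted p = 0.00449). The other members of the group, Parp9, Parp12 and Dtx3l, were 0.13 to 0.17 higher on the log2 scale and not called. Parp12 read 26.5, 24, 23 and 26.7 CPM with LA and 22.9, 21.8, 24.6 and 22.7 CPM with vehicle, with overlap.

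Antiviral effectors gave 5 of the 9 calls. Lgals3bp, a secreted glycoprotein that binds galectins, had the smallest adjusted p. It read 46.7, 42.2, 42.4 and 39.9 CPM with LA and 31.4, 33.2, 30.9 and 29.6 CPM with vehicle, a rise of 1.37-fold (log2 fold change 0.46, SE 0.08, adjusted p = 7.28e-05). Every LA library was above every vehicle library. Bst2 read 9.08, 11, 9.68 and 7.78 CPM with LA and 7.04, 8.07, 6.56 and 4.57 CPM with vehicle (1.42-fold, adjusted p = 0.0326). The lowest LA library lay under the highest vehicle library. Samd9l, which restrains poxvirus growth, read 45.1, 47.2, 34.2 and 42.5 CPM with LA and 21.7, 36.5, 32.1 and 37.7 CPM with vehicle (1.34-fold, adjusted p = 0.0208). Vehicle replicate 1 was the low library there, and the groups overlapped.

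Ifit3 and Ifit3b are near-identical neighbours that act with Ifit1 on viral RNA. How reads shared by such copies were counted was not given in the sources used here, so their separate values are uncertain. Ifit3 read 2.72, 4.39, 2.45 and 2.66 CPM with LA and 2.05, 2.09, 1.54 and 1.14 CPM with vehicle (1.78-fold, adjusted p = 0.0237). Ifit3b read 0.995, 1.05, 1.23 and 1.38 CPM with LA and 0.246, 0.299, 0.728 and 0.415 CPM with vehicle (2.63-fold, adjusted p = 0.00964). Both were low, and in both the LA libraries lay above the vehicle libraries. Ifit1 and Ifit2 were at 1.39 ± 0.621 and 24.2 ± 1.52 CPM with LA against 1.27 ± 0.543 and 25 ± 1.1 CPM with vehicle (SD, n = 4), neither called. Isg15 had an adjusted p of 0.891 and Adar one of 0.375. Trim25 read 39.6, 42.2, 40.5 and 43.3 CPM with LA and 36.7 to 38.2 CPM with vehicle, without overlap, but its adjusted p was 0.0855.

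Of the 4 GTPases 0 were called by edgeR or had an unadjusted p under 0.05. Igtp, the highest of them, read 5.04, 3.62, 4.66 and 4.43 CPM with LA and 4.42, 4.68, 5.26 and 3.63 CPM with vehicle, an even spread. Of the class I genes, B2m read 202, 223, 204 and 216 CPM with LA and 193, 182, 175 and 171 CPM with vehicle (1.17-fold, adjusted p = 0.0469). H2-K1 read 74.9, 73.7, 69.1 and 64.9 CPM with LA and 60.7, 66.1, 59.3 and 58.5 CPM with vehicle (1.16-fold, adjusted p = 0.0158). The B2m libraries did not overlap, and those of H2-K1 did in 1 pair. Class I heavy chain genes resemble each other, so the values of H2-K1 and H2-D1 are uncertain in the same way. Tap1, the peptide transporter, was 1.43-fold higher at an adjusted p of 0.116, and Tapbp was lower in every pair of libraries (log2 fold change -0.20, adjusted p = 0.0966). Both missed the call, though Tapbp was called lower in a fit of only the groups compared.

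**Figure D4:**
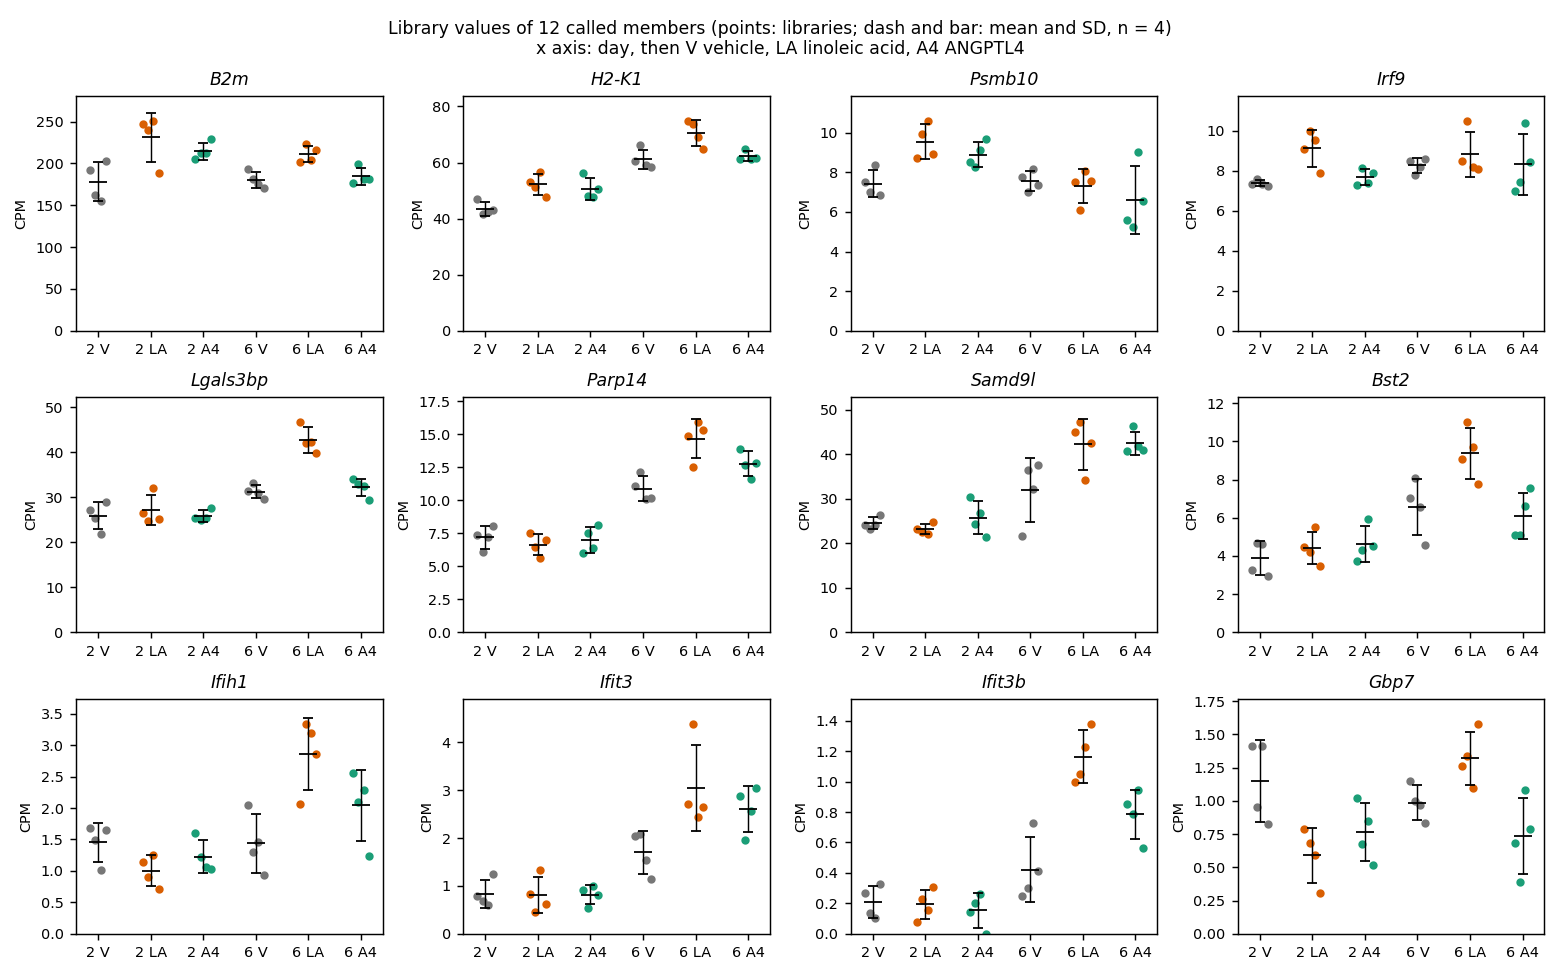
CPM of 12 called members in each library, with the mean and SD of each group (n = 4). Lgals3bp and Ifit3b libraries with LA at day 6 sit above all vehicle libraries, and B2m and H2-K1 are above day 2 vehicle in most LA and ANGPTL4 libraries of day 2.

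Calls of Ifih1, Lgals3bp and Parp14 were kept when any of the 8 libraries was left out. Without day 6 LA replicate 2 the count was 5, and Ifit3 (adjusted p = 0.147), Bst2 (0.122), B2m (0.101) and Samd9l (0.0725) were not called. Over single libraries left out, Bst2 lost its call in 5 of 8 fits (0.0528 to 0.122), B2m in 4 (0.0687 to 0.104), Ifit3 in 3 (0.0644 to 0.147) and Samd9l in 3 (0.0522 to 0.0725). H2-K1 had an adjusted p of 0.0684 without LA replicate 1, and Ifit3b 0.0534 without vehicle replicate 1. Markers of other programmes moved in the same comparison. Of 12 skeletal muscle markers 10 fell and 1, Myf5, rose (1.32-fold, adjusted p = 0.0179), their sum being 11900 to 13200 CPM with LA and 16400 to 17400 CPM with vehicle. Of 7 fibroblast markers 6 were tested and 5 rose, and their sum was 10100 to 11900 CPM with LA and 8000 to 9040 CPM with vehicle. Most of that sum, as in every group, was the collagen Col3a1, at a mean of 9430 CPM with LA and 6960 CPM with vehicle. Col1a1, at 1010 and 1090 CPM, was not called. The summed macrophage and leukocyte markers were 7.49 to 8.62 CPM and 7.47 to 8.34 CPM. The part of muscle and fibroblast programmes in the members' changes was not tested.

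At day 2, LA raised 4 members and lowered 1, with 8.27% of all genes called higher and 6.82% lower. Among all called genes 54.8% were higher, and 68.2% with library totals alone. The members' median log2 fold change was 0.05, beside 0.0054 over all genes. The 4 raised genes were B2m, H2-K1, the immunoproteasome subunit Psmb10 and Irf9, the DNA-binding partner of Stat2. B2m read 247, 240, 251 and 188 CPM with LA and 192, 162, 155 and 203 CPM with vehicle. LA replicate 4 lay among the vehicle libraries and the other 3 above them (1.30-fold, log2 fold change 0.38, SE 0.08, adjusted p = 0.00322). H2-K1 read 53, 51.3, 56.7 and 47.7 CPM with LA and 47, 41.5, 42.3 and 43 CPM with vehicle, with no overlap (1.21-fold, adjusted p = 0.00506).

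Psmb10 read 8.73, 9.94, 10.6 and 8.9 CPM with LA and 7.52, 7, 8.36 and 6.85 CPM with vehicle (1.30-fold, adjusted p = 0.0229). Irf9 read 9.09, 10, 9.54 and 7.87 CPM with LA and 7.34, 7.61, 7.35 and 7.26 CPM with vehicle (log2 fold change 0.32, SE 0.10, adjusted p = 0.0338). Neither gene's groups overlapped. Gbp7, a guanylate-binding GTPase, was the 1 member that fell. It read 0.787, 0.682, 0.589 and 0.307 CPM with LA and 1.41, 0.951, 1.41 and 0.825 CPM with vehicle (0.564-fold, adjusted p = 0.0446). Of the 2 sensors, 4 ADP-ribosylation genes and 15 effectors tested, 0 were called by edgeR, and 2 effectors (Ifit2 and Eif2ak2) had an unadjusted p under 0.05. Ifit2 was lower in every pair of libraries (16.9 ± 0.644 against 19.3 ± 0.219 CPM, SD, n = 4 each, adjusted p = 0.0969 in the fit across all genes).

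Calls of B2m and H2-K1 were kept when each of the 8 libraries was left out. Irf9 lost its call in 7 of 8 such fits (adjusted p 0.0526 to 0.128), the exception being LA replicate 4. Gbp7 lost it in 5 (0.0644 to 0.133) and Psmb10 in 4 (0.055 to 0.134). Without LA replicate 3, which stood apart, the adjusted p was 0.128 for Irf9, 0.133 for Gbp7 and 0.134 for Psmb10, and 2 members were called. The count was also 2 without LA replicate 2. The standard proteasome subunits Psmb5, Psmb6 and Psmb7, which Psmb8, Psmb9 and Psmb10 replace in the immunoproteasome, all rose with LA at day 2, with log2 fold changes of 0.81, 0.26 and 0.30 beside 0.38 for Psmb10. At day 6 Psmb7 fell with LA (-0.22). The LA effect differed between the days for all 3, by -1.06, -0.42 and -0.52, beside -0.44 for Psmb10, which was not called (adjusted p = 0.0687). Over all genes, 8.27% were called higher with LA at day 2, 9.38% lower at day 6 and 11.0% lower in the difference. A link between Psmb10 and these subunits was not tested.

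The LA effect differed between the days for 6 members, each more positive at day 6, by a test of the difference itself. Over all genes 8.68% of such differences were called higher and 11.0% lower. The members' median difference was 0.16, beside -0.02 over all genes. Ifih1 was -0.47 at day 2 and 0.93 at day 6 on the log2 scale, a difference of 1.40 (SE 0.36, adjusted p = 0.00634). Gbp7 was -0.83 and then 0.41, a difference of 1.24 (adjusted p = 0.0283). Parp14 (difference 0.54, adjusted p = 0.0168), Samd9l (0.51, 0.0484), Lgals3bp (0.38, 0.0161) and Eif2ak2 (0.33, 0.0279) followed, the last being the kinase PKR, which halts translation on double-stranded RNA. Eif2ak2 read 23, 19.8, 20.6 and 19.9 CPM with LA against 24.6, 21.3, 23.9 and 24.3 CPM with vehicle at day 2. At day 6 it read 27.1, 26.2, 26.1 and 28.1 CPM against 22.6, 26, 23.1 and 24.5 CPM, and neither day alone gave a call. Of the 6 class I genes tested, 0 differed between days by this edgeR test, 2 had an unadjusted p under 0.05, and 5 differences were below 0.

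Of the 16 libraries left out in turn, none ended the calls of Ifih1 and Lgals3bp. Samd9l lost its call in 12 of 16 fits (adjusted p 0.0522 to 0.106). Gbp7 lost it in 4 (0.0532 to 0.0569), those without day 2 vehicle replicate 1 or 3, day 2 LA replicate 3 or day 6 LA replicate 4. Eif2ak2 lost it without day 2 vehicle replicate 4 (0.0545) or day 6 vehicle replicate 1 (0.0557), and Parp14 without day 2 vehicle replicate 4 (0.0503). Without day 2 vehicle replicate 4, day 2 LA replicate 3 or day 6 vehicle replicate 1 the count was 4. Not all of these calls were toward higher. Tapbp was called toward lower at day 6 without day 2 vehicle replicate 4, day 2 vehicle replicate 1 or day 2 LA replicate 4. With both libraries that stood apart left out, 3 members were called. The LA effect on the markers also differed between the days, with 8 of 12 skeletal muscle markers lower and 3 of 6 fibroblast markers higher, and their part was not tested.

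**Figure D5:**
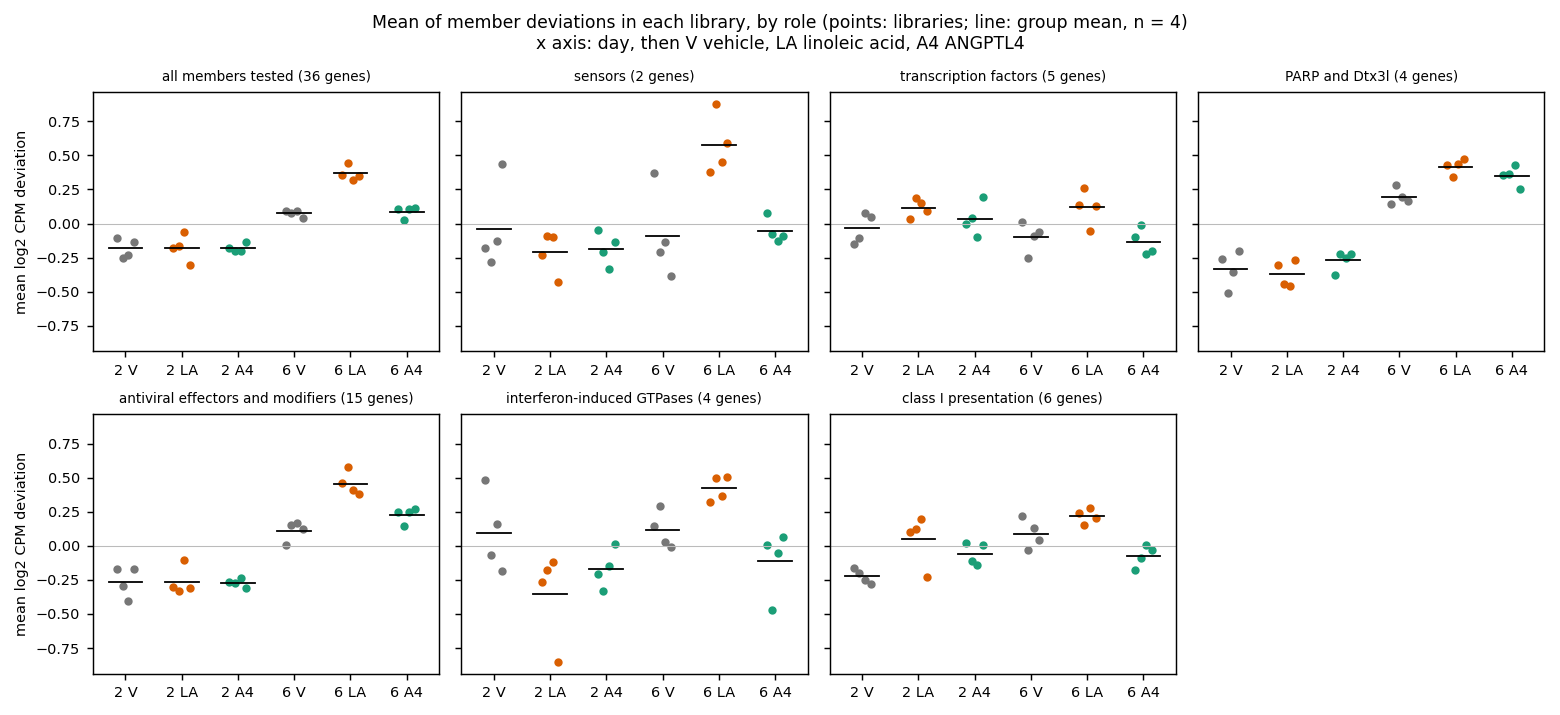
Mean log2 CPM deviation of the members of each role in each library, with group means. The day 6 LA libraries of all 36 members lie at 0.322 to 0.445, above the other groups, and the class I panel is also raised in 3 of 4 day 2 LA libraries.

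ANGPTL4 at day 2 raised 2 members and lowered 0, with 3.86% of all genes called higher and 5.96% lower. Among all called genes 39.3% were higher, beside 54.2% if scaled by library totals alone and 27.1% if by DESeq2 size factors. The members' median log2 fold change was 0.0019, beside 0.02 over all genes. Both raised genes were class I chains. B2m read 205, 212, 212 and 229 CPM with ANGPTL4 and 192, 162, 155 and 203 CPM with vehicle (1.20-fold, adjusted p = 0.0326). H2-K1 read 56.3, 48, 47.7 and 50.5 CPM and 47, 41.5, 42.3 and 43 CPM (1.17-fold, adjusted p = 0.0244). Neither overlapped. B2m lost its call in 5 of 8 fits with a library left out (0.0576 to 0.106) and H2-K1 in 4 (0.0532 to 0.126), and without day 2 vehicle replicate 2 or replicate 3 the count was 0. Side by side, LA and ANGPTL4 at day 2 gave log2 fold changes of 0.38 and 0.27 for B2m, 0.27 and 0.22 for H2-K1 and 0.38 and 0.26 for Psmb10. The last was not called with ANGPTL4 (adjusted p = 0.14).

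ANGPTL4 at day 6 changed 0 members at an adjusted p under 0.05 by edgeR, and 0 by DESeq2 and limma-voom. At an unadjusted p under 0.05 there were 4, namely Ifit3, Tapbp, Samd9l and Eif2ak2. Over all genes 0.0154% were called higher and 0.00770% lower. The members' median log2 fold change was 0.02, beside -0.0094 over all genes. Samd9l had the smallest adjusted p, 0.179, and read 40.8, 46.3, 41.9 and 41 CPM with ANGPTL4, each above the highest vehicle library at 37.7 CPM. The log2 difference of Samd9l was 0.42 with both ANGPTL4 and LA, each against the same vehicle libraries. Vehicle replicate 1 was the low library at 21.7 CPM, and without it the LA difference was 0.28. Ifit3b was 0.84 higher (SE 0.45, adjusted p = 0.487) and Ifih1 0.44 higher (SE 0.28, adjusted p = 0.562). Library totals in this group were 6.1 to 9.07 M counts, the lowest mean of the 6 groups. The change of the ANGPTL4 effect between days was called for 0 members (0.0847% of all genes higher and 0.192% lower) by edgeR and limma-voom and for 1, Eif2ak2, by DESeq2, which called 381 of all genes where edgeR called 36. At an unadjusted p under 0.05 there were 5.

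LA and ANGPTL4 were also compared directly. At day 2, 0 members differed by edgeR, DESeq2 or limma-voom, 4 had an unadjusted p under 0.05, and 0.0616% of all genes were called higher and 0.0308% lower with LA. H2-K1 and B2m had adjusted p of 0.797 and 0.582. The all-gene count depended on single libraries. It was 12 with all libraries, 159 without day 2 LA replicate 3 and 363 without replicate 4, but 7 and 6 without replicates 1 and 2. Without the 2 libraries that stood apart it was 236. The count of members stayed at 0 in each of these fits. At day 6, 3 members were higher with LA, Lgals3bp, Bst2 and Trim25, and 0 were lower. Over all genes 6.60% were called higher and 7.32% lower (47.4% of the calls higher, and 62.9% with library totals alone), and the members' median was 0.21, beside -0.0069 over all genes. Lgals3bp read 46.7, 42.2, 42.4 and 39.9 CPM with LA and 34, 32.9, 32.6 and 29.5 CPM with ANGPTL4 (1.33-fold, adjusted p = 0.00052). Trim25 read 39.6, 42.2, 40.5 and 43.3 CPM and 36.2, 34.3, 38.2 and 31.5 CPM (1.18-fold, adjusted p = 0.00832). Bst2 read 9.08, 11, 9.68 and 7.78 CPM and 5.1, 5.1, 6.61 and 7.54 CPM (1.52-fold, adjusted p = 0.0225). In all 3 genes the LA libraries lay above the ANGPTL4 libraries. Parp14, Ifih1, Ifit3 and Ifit3b did not pass this test. Bst2 lost its call without LA replicate 2 (0.0858), ANGPTL4 replicate 1 (0.0665) or ANGPTL4 replicate 2 (0.0897), and Trim25 without ANGPTL4 replicate 4 (0.0603). In this comparison 10 of 12 skeletal muscle markers were lower and 1 higher with LA (sums of 11900 to 13200 against 16400 to 17200 CPM). Of 6 fibroblast markers 5 were higher (10100 to 11900 against 7750 to 8450 CPM), and the part of either list was not tested.

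Upstream genes of the pathway were read from a list of 19, of which 17 were tested. Ifnb1 and Ifng, which encode interferons, were not among the genes of the table. With LA at day 6, 2 rose and 2 fell, beside 7.83% and 9.38% of all genes. The receptor chain Ifnar2 went from 26.8 ± 1.64 to 34.3 ± 2.37 CPM (SD, n = 4 each, 1.27-fold, adjusted p = 0.00253 across all genes in edgeR), and Jak1 from 214 ± 9.66 to 249 ± 4.93 CPM (1.16-fold, adjusted p = 0.000662). Stat3 and the feedback inhibitor Socs3 fell by 0.17 and 0.23 on the log2 scale. Ifnar1, Ifngr1, Ifngr2, Tyk2, Mavs and Irf3 were not called with LA at either day. In vehicle between the days 8 rose and 3 fell (25.2% and 20.5% of all genes), among them Socs3 (0.47), both interferon gamma receptor chains Ifngr2 (0.36) and Ifngr1 (0.27), and Tyk2 (0.28), all higher at day 6. Against ANGPTL4 at day 6, Jak1 was 0.13 higher with LA (adjusted p = 0.044) and was the 1 call. Over all genes 6.60% were called higher and 7.32% lower there. At day 2, where 8.27% of all genes were called higher and 6.82% lower, LA lowered Jak1 (-0.13), Jak2 (-0.22) and Ptpn2 (-0.16) and raised Socs3 (0.18) and, chosen after its value was seen, Socs1 (0.58). With ANGPTL4, 0 of the 17 were called at either day by edgeR, with 3 at day 2 and 2 at day 6 under an unadjusted p of 0.05. Few genes of any kind were called there, 3.86% higher and 5.96% lower at day 2, and 0.0154% and 0.00770% at day 6.

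Other interferon-stimulated genes, 51 of 80 tested, gave 12 higher and 0 lower calls with LA at day 6, beside 7.83% and 9.38% of all genes. The largest among those of at least 5 CPM were Ifi207 (0.76), Ifi203 (0.47) and Ifi204 (0.42), nuclear DNA-binding proteins of the p200 family, and Trim12c (0.32), all log2 fold changes. At day 2, LA gave 4 higher and 3 lower calls (8.27% and 6.82% of all genes), with Gbp9 at -0.48 and Ifi27 at 0.32. In vehicle, 14 rose and 8 fell between the days, beside 25.2% and 20.5% of all genes. Gbp9 fell by 1.40 on the log2 scale, and, chosen after their values were seen, Gbp4, Gbp6, Gbp8 and Gbp10 fell by 2.32, 1.93, 2.01 and 1.62. Guanylate-binding proteins resemble each other, so reads may be shared among them. Compared with ANGPTL4, LA gave 8 higher and 1 lower call at day 6 (6.60% and 7.32% of all genes), with Trim12c (0.51), Lgals9 (0.38) and Mov10 (0.33) higher and Apol9b (-0.43) lower. At day 2 it gave 0 higher and 1 lower, Gbp9 (-0.64), beside 0.0616% and 0.0308% of all genes. The LA effect differed between days in 8 of the 51 toward higher and in 2 toward lower at day 6, beside 8.68% and 11.0% of all genes. ANGPTL4 gave 0 higher and 1 lower call at day 2 (Rnf213, -0.23), beside 3.86% and 5.96% of all genes. At day 6 it gave 0 calls (0.0154% and 0.00770% of all genes), and 5 had an unadjusted p under 0.05.

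Nucleic acid sensing genes, 17 of 24 names tested, gave 2 higher and 0 lower calls with LA at day 6, beside 7.83% and 9.38% of all genes. Ddx58 (RIG-I), the sensor of viral RNA ends, rose from 25.6 to 32.2 CPM (log2 fold change 0.33, adjusted p = 0.00314), and Samhd1 rose by 0.18. Ddx58 fell with LA at day 2 (-0.25, adjusted p = 0.0281), and its LA effect differed between the days (0.58, adjusted p = 0.000492), as that of Ifih1 did. It was the 1 lower call of this list at day 2, beside 1 higher call (6.82% and 8.27% of all genes). For the difference between days, Ddx58 was the 1 call toward higher at day 6, beside 1 toward lower (8.68% and 11.0% of all genes). In vehicle 6 genes of this list rose and 1 fell between the days (25.2% and 20.5% of all genes), with Tlr3, a sensor of double-stranded RNA in endosomes, at 0.95 and Sting1 at 0.51. With ANGPTL4, 1 gene rose at day 2, Nfkbia (0.33), and 0 fell, beside 3.86% and 5.96% of all genes. Against ANGPTL4 at day 6, 1 was higher with LA, Ikbke (0.41), and 0 lower, beside 6.60% and 7.32% of all genes. Other class I presentation genes, 21 of 27 tested, gave 2 higher and 0 lower calls with LA at day 6, beside 7.83% and 9.38% of all genes. These were the peptide trimming enzyme Erap1 (0.23) and Pdia3 (0.13). In vehicle 9 of the 21 rose and 1 fell, beside 25.2% and 20.5% of all genes, among them H2-M3 (0.64), H2-Q4 (0.61) and H2-T23 (0.39). At day 2 LA gave 4 higher and 2 lower (8.27% and 6.82% of all genes). H2-Q4 (0.42) and the proteasome activator Psme2 (0.32) were among the higher, and the 21 ran from -0.319 to 0.526. The LA effect differed between the days for 0 of the 21 toward higher and 2 toward lower at day 6, beside 8.68% and 11.0% of all genes. With ANGPTL4 at day 2, H2-Q4 rose as well (0.52, adjusted p = 0.0162), and 2 genes of this list rose and 2 fell, beside 3.86% and 5.96% of all genes. The 21 ran from -1.27 to 0.519 there. Of 9 class II genes 3 were tested, and the lysosomal reductase Ifi30 rose with LA at day 6 (0.38, adjusted p = 0.000953). It was the 1 call of the 3, beside 7.83% of all genes called higher and 9.38% lower.

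Within groups, the members moved together little. The mean correlation over pairs of the 36 members, after each group's mean was taken away, was 0.04 over 24 libraries, beside 0.0013 over all genes tested. For the 19 members of at least 5 CPM it was 0.05, beside 0.0022 for 10273 genes. B2m and Tapbp were the closest pair (r = 0.832), then Tapbp and Lgals3bp (r = 0.664), H2-K1 and Stat2 (r = 0.585), B2m and Lgals3bp (r = 0.559), H2-K1 and Lgals3bp (r = 0.548), and Dtx3l with Parp9 (r = 0.539), whose genes lie head to head. These pairs share libraries and depth, and were picked as the highest of all pairs, so the values are a description.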

How the data were processed

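Gene counts were measured by QuantSeq 3′ sequencing of total RNA, which reads the 3′ ends of transcripts. The submitters' processing notes name HTSeq 0.9.1, STAR 2.7.1a, DESeq, DESeq2, Trimmomatic and mouse build mm39, with no order or settings. The deposited values are raw counts per gene symbol, with no total under 51. Genes were kept by edgeR's filterByExpr (edgeR 4.0.16, R 4.3.3), scaled by TMM factors and fitted as 6 group means over 24 libraries with the robust quasi-likelihood test (18 residual degrees of freedom). Each adjusted p is from this test, with the Benjamini-Hochberg adjustment across the 12994 genes tested, unless a tool is named. Standard errors come from the fold change and its F statistic. CPM uses TMM-scaled totals, and log2 CPM a prior count of 2. Alternatives were DESeq2 1.42.0, limma-voom (limma 3.58.1), other scalings and filters, thinning, a block on replicate number and libraries left out. The script was tested on simulated data. Figures were drawn with matplotlib 3.10.9.

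The members and lists were chosen with earlier results of these data known. Library values are given for called members of at least 5 CPM (6 at most per comparison), the highest member of each role, and, added after their values were seen, Ifit3, Ifit3b, Gbp7 and Ifih1, Parp9 and Ifit1 in vehicle, and Trim25, Eif2ak2 and Samd9l beyond the comparisons that called them. Genes of other lists were named by size of change, at 5 CPM or more, and 1 gene of them is not reported here. Promoters came from RefSeq (GRCm38.p6), and no coordinates of mm39 were used.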

Additional observations from a re-analysis of the deposited data

Results flagged for a closer look

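In 216 groups of 4 libraries, 15 (6.94%) had 1 library far from the other 3 by Dixon's test, 11 high and 4 low, and chance gives about 1 in 20. The high libraries were these. Parp9 read 16.4 CPM in day 2 LA replicate 4 (others 12.6 to 13.2) and 25.2 in day 6 LA replicate 4 (22.7 to 22.9). Ifit3 read 4.39 CPM (2.45 to 2.72) and Irf9 10.5 (8.08 to 8.49) in day 6 LA replicate 2. Ifit1 read 0.739 CPM (0.194 to 0.264) and Dhx58 1.26 (0.899 to 0.947) in day 2 ANGPTL4 replicate 4. Dhx58 read 1.39 CPM (0.89 to 0.934) in day 6 vehicle replicate 1 and Rtp4 2.1 CPM (1.39 to 1.45) in replicate 3. Igtp read 5.39 CPM in day 2 vehicle replicate 1 (3.13 to 3.46), Adar 42.7 CPM in replicate 2 (37 to 37.9), and H2-K1 65 CPM in day 6 ANGPTL4 replicate 2 (61.2 to 61.5). The low libraries were Stat2 in day 2 LA replicate 4, at 24.3 CPM (27.7 to 28.3), and Xaf1 in day 2 vehicle replicate 3, at 1.51 CPM (2.8 to 3.01). Tapbp in day 6 LA replicate 4 read 34.3 CPM (37.5 to 37.9), and H2-D1 in day 6 ANGPTL4 replicate 4 read 1.58 CPM (2.48 to 2.56).

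The LA effect differed between days, by its own test, for Ifih1 (log2 difference 1.4), Gbp7 (1.24), Parp14 (0.542), Samd9l (0.506), Lgals3bp (0.383) and Eif2ak2 (0.327).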

How the results depend on the processing

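Of 40 called member results, 16 were kept in every alternative that gave the gene an adjusted p. Some low genes had fewer such alternatives, as Ifit1 in vehicle with 14, beside 17 for Bst2. Of 727 recomputed gene values 592 kept direction and call, 135 lost the call and 0 reversed. The causes were not tested, except that thinning and leaving out libraries leave fewer reads or samples.

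The count of members called moved by more than 1.5 times in these cases. LA at day 2 (5) gave 3 with DESeq2, 1 with only the groups compared, 2 without the libraries that stood apart and 3 after thinning to the smallest library. LA at day 6 (9) gave 4 after thinning. ANGPTL4 at day 2 (2) gave 0 with only the groups compared, 1 after thinning and 1 with the replicate block. LA against ANGPTL4 at day 6 (3) gave 5 with only the groups compared and 5 after thinning. The change of the LA effect (6) gave 3 without the libraries that stood apart, and that of ANGPTL4 (0) gave 1 with DESeq2. Smaller moves included vehicle (15), with 10 with only the groups compared, 11 with a filter of 5 CPM and 12 after thinning. With the 5 CPM filter, LA at day 6 gave 6 and the change of the LA effect 4.

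With each library left out, the count ran from 9 to 15 for vehicle, 2 to 4 for LA at day 2, 5 to 9 for LA at day 6, 0 to 3 for ANGPTL4 at day 2, 2 to 4 for LA against ANGPTL4 at day 6 and 4 to 8 for the change of the LA effect.

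Deviations of same-numbered libraries from their group means correlated at -0.172 to 0.183, which cannot show whether such libraries share a culture or batch. At most 4 of 8 libraries correlated best with their own number, and the replicate block left 14 members called in vehicle, 5 with LA at day 2, 8 with LA at day 6, 4 for LA against ANGPTL4 at day 6 and 5 for the change of the LA effect. Under DESeq2 size factors and under library totals alone, vehicle members split 13 higher and 1 lower, the last being Trim25. Members under about 1 CPM, such as Ifit1, Ifit3b and Gbp3, rest on few reads in the smaller libraries.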
